A study of Mus musculus with 6 samples.

Results

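The 9 genes described here encode RNA-binding proteins that decide when a stored mRNA of the oocyte is translated, and parts of the polyadenylation machinery. They are the cytoplasmic polyadenylation element-binding proteins Cpeb1, Cpeb2, Cpeb3 and Cpeb4, the germ cell protein Dazl, the Pumilio protein Pum2, the poly(A) polymerase Papola, and the cleavage and polyadenylation specificity factor subunits Cpsf4 and Cpsf2. They were taken by name from a table of 22416 genes, and all 9 passed the filter (an average of 1 FPKM or more) that left 15127 genes for testing. The values are ribosome footprints measured by Ribo-lite, a low-input form of ribosome profiling, in which the short stretch of mRNA covered by a ribosome survives nuclease digestion and is sequenced. FPKM scales the footprint reads to the length of the coding sequence and to the reads of the library, so that levels of different genes can be set side by side.

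There were 6 libraries in 3 groups of 2, each from 500 oocytes. All came from wild-type mice of 4 weeks that had received 5 IU of PMSG, with oocytes collected 44 h later. WT_FGO holds fully grown oocytes with an intact germinal vesicle, before meiosis resumes. WT_MII holds control oocytes matured to metaphase II, and Treat_MII holds metaphase II oocytes that were treated during maturation. The labels name that group only as treated. By the study's methods the agent was BYBX, a ligand that holds RNA G-quadruplexes (folded G-rich stretches of RNA) in their folded form, and controls received its solvent DMSO. The paper reports that fewer oocytes released a polar body under BYBX, and that those reaching metaphase II had abnormal spindles. Whether incomplete maturation contributed to the Treat_MII values was not tested. The labels do not tie the libraries to separate animals, so that p-values measure only the spread between these libraries.

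In a fully grown oocyte transcription has stopped, and many mRNAs wait with a short poly(A) tail. CPEB1 binds the cytoplasmic polyadenylation element (CPE) in the 3'-UTR. With repressor partners it holds the mRNA silent, and after its phosphorylation at meiotic resumption it favours tail elongation by CPSF and a poly(A) polymerase. DAZL takes over part of this work later in maturation, and its own mRNA is a known CPEB1 target. Pumilio proteins bind a further 3'-UTR element and mostly repress.

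The libraries differed in depth. The read totals implied by the FPKM scale were 94309 and 107251 in WT_FGO, 164972 and 230907 in WT_MII, and 331304 and 275604 in Treat_MII. Summed over the 6 libraries, Cpeb3 had 782 reads, Cpeb1 665 and Dazl 561, while Cpsf2 had 95, Papola 91, Pum2 89, Cpsf4 16, Cpeb2 13 and Cpeb4 11. The last 3 genes therefore had too few reads for changes of moderate size to be detectable at this depth. All 10 oocyte markers were above 0 in every library. At maturation 8 of them were called lower and 1 higher, and none was called in the treatment contrast, where 9 had both treated libraries above both controls. Over all tested genes 3.09% were called lower and 3.67% higher at maturation, and 16.2% had both treated libraries above both controls. They took up 7.23% and 5.17% of all FPKM in the WT_FGO libraries, 2.72% and 2.99% in WT_MII, and 3.85% and 3.99% in Treat_MII. The summed level of 14 granulosa or cumulus cell markers ranged from 315 to 2236 FPKM over the libraries, with 4 to 9 of them at 0 in a library. It was highest in WT_MII replicate 1 (2236) and next in WT_FGO replicate 2 (1716). The markers that stood out differed between these libraries, as was seen after their values were known. WT_FGO replicate 2 held 88 reads of Inha (at most 3 in any other library) and 3 each of Fshr and Lhcgr (0 in the others). WT_MII replicate 1 held 333 reads of Hsd17b1, or 1956 FPKM against 202 to 730 in the others, and 26 of Kitl, or 168 FPKM against 0 to 32.3. Hsd17b1 thus made up most of the sum of that library. There Inha (11.0 FPKM), Amh (40.1) and Cyp19a1 (32.1) lay within the range of the other libraries. Any part of granulosa or cumulus cells in the results was not tested, and the main changes are also given without each of these libraries.

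The 3'-UTRs show what the regulators themselves could be regulated by. Shown here are the 30 bases around the CPE nearest the annotated 3' end of the 3 genes with the most reads, because these carry the results that follow. They were read from GENCODE transcripts on GRCm38 (the assembly of mm10), 5' to 3' on the strand of the gene, and capitals mark a CPE (TTTTAT or TTTTAAT) or a polyadenylation hexamer (AATAAA or ATTAAA).
Cpeb1, chr7:81347256-81347285, minus strand, 3'-UTR: ttgacttttctTTTTAATttaacgattact
Cpeb3, chr19:37021506-37021535, minus strand, 3'-UTR: ggAATAAAttaaTTTTATgatgctaattct
Dazl, chr17:50279752-50279781, minus strand, 3'-UTR: aagtcaaaattcTTTTATgtcaccaagtca

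On the longest coding transcript all 9 genes held at least 1 CPE in the 3'-UTR, as did 58.9% of the 14682 tested genes with such a transcript. The number ran from 2 in Cpsf4 to 24 in Cpeb2, with 17 in Cpeb4, 8 each in Pum2 and Cpsf2, 7 in Papola, 6 each in Cpeb3 and Dazl, and 4 in Cpeb1. Their 3'-UTRs were long, at 836 to 4102 bases, and 8 of 9 exceeded the median of 1034 bases over the tested genes, so that more matches fit into them. None of the 9 had a CPE within 100 bases of the annotated end, where 18.2% of the tested genes had one. The nearest lay 159 bases from it in Cpeb2, 249 in Cpeb1, 373 in Dazl and 925 in Pum2. These distances hold for the annotated end only, and an end used in the oocyte was not measured.

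The Pumilio element TGTANATA, searched like the others on the sense strand, occurred in Cpeb1, Cpeb2 and Cpeb3 (1 each) and in Pum2 and Cpsf2 (2 each), against 25.0% of the tested genes with at least 1. The sequence TTTGTT, which DAZL can bind, was found in all 9 (1 to 10 copies) and in 53.4% of the tested genes. A G-quadruplex motif (4 stretches of 3 or more G, separated by 1 to 7 bases) was present in the 5'-UTR of Pum2 (7.6% of tested genes) and in the 3'-UTR of Cpeb3 (11.7%). The coding sequences of the 9 genes held no such motif, and those of 4.4% of the tested genes did. A match is a string of letters, not a measured binding site or a folded G-quadruplex.

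**Figure D1:**
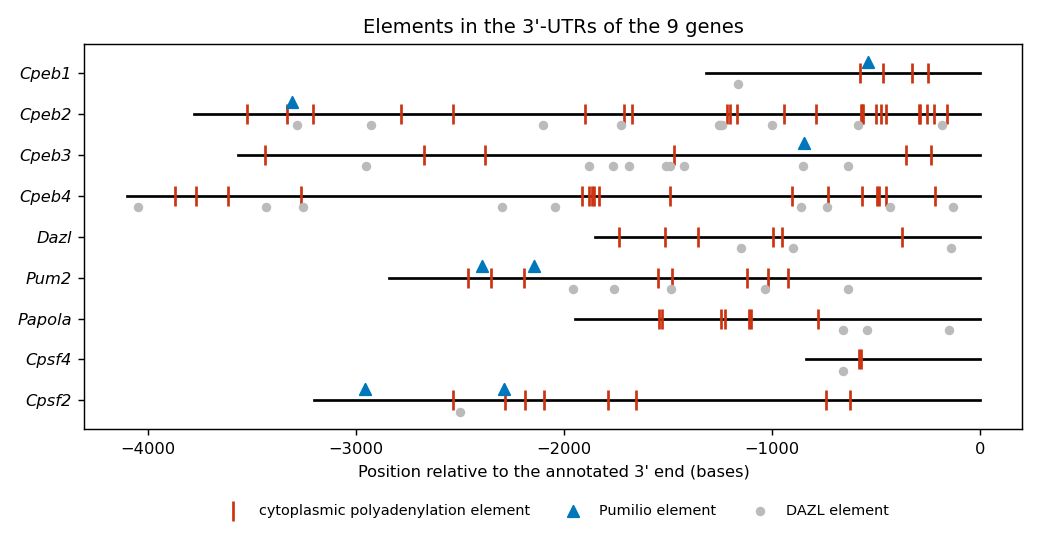
Positions of CPEs (red bars), Pumilio elements (blue triangles) and TTTGTT (grey points) in the 3'-UTR of the longest coding transcript of each gene. The horizontal axis is the distance in bases from the annotated 3' end, and each black line is the whole 3'-UTR, from 836 bases in Cpsf4 to 4102 in Cpeb4.

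Maturation was compared first, as WT_MII minus WT_FGO, to see which regulators gained or lost footprints when meiosis resumed. Dazl rose and Cpeb1 fell, and the other 7 genes did not pass the test. Thus 1 of 9 genes was called higher and 1 lower, where 3.67% and 3.09% of all tested genes were called (limma, Benjamini-Hochberg adjusted p under 0.05). The median log2 change was -0.16 over the 9 genes and -0.44 over all tested genes. Since no mRNA measurement was used here, a change in mRNA amount, in ribosomes per mRNA or in the number of cells contributing cannot be told apart.

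Dazl (chr17:50279395-50293636, minus strand) had 2 and 0 reads in the WT_FGO libraries, 96 and 141 in WT_MII, and 171 and 151 in Treat_MII. In FPKM these were 23.7 and 0, then 651 and 683, then 577 and 613. The gene was thus nearly free of footprints before meiotic resumption and stood among the highest genes after it, with no overlap between WT_FGO and either metaphase II group. The log2 change at maturation was 7.07 (SE 1.37, limma adjusted p = 0.0377). From pooled reads, the level in WT_MII was 60.3 times that in WT_FGO, with a 95% interval from 16.5 to 501 that covers counting error only. In rank, Dazl went from the 54.3rd percentile of the tested genes in WT_FGO to the 99.0th in WT_MII.

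The call of Dazl depended on which libraries entered the fit. It held without WT_FGO replicate 1 (log2 change 9.38, adjusted p = 0.00231) and without WT_FGO replicate 2, a library with a high granulosa marker sum (4.76, adjusted p = 0.00365). It was lost without WT_MII replicate 1, the library with the highest such sum (adjusted p = 0.240), or 2 (0.236) and without Treat_MII replicate 1 (0.203) or 2 (0.203), although the change itself was then 7.03 to 7.10.

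Cpeb1 (chr7:81347026-81455465, minus strand) moved the other way. Its levels were 579 and 658 FPKM in WT_FGO, 155 and 205 in WT_MII and 363 and 275 in Treat_MII. The reads behind them were 92 and 119, then 43 and 80, then 203 and 128. Both WT_MII libraries lay below both WT_FGO libraries, and the log2 change was -1.79 (SE 0.31, limma adjusted p = 0.0269). In pooled reads WT_FGO was 3.37 times WT_MII (95% counting interval 2.68 to 4.24). Leaving out any library kept the sign, with log2 changes from -1.99 to -1.58, but ended the call: the adjusted p was 0.0714 and 0.0867 without WT_FGO replicates 1 and 2, 0.0967 and 0.0650 without WT_MII replicates 1 and 2, and 0.118 and 0.116 without Treat_MII replicates 1 and 2. Centring the libraries, by subtracting from each the median log2 ratio to the gene means, left a change of -1.25 (adjusted p = 0.0740).

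Cpeb3 (chr19:37021291-37208601, minus strand), a member of the CPEB subfamily that differs from CPEB1 in its RNA-binding domain, had a high footprint level in both stages. It had 427 and 384 FPKM in WT_FGO and 421 and 269 in WT_MII. The groups overlapped, and the log2 change was -0.27 (95% interval -1.04 to 0.51, adjusted p = 0.636). Its sign turned to 0.27 after centring on the median gene.

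The remaining CPEB genes were close to the limit of detection. Cpeb2 (chr5:43233170-43289724, plus strand) had 4 and 1 reads in WT_FGO, 0 and 3 in WT_MII and 4 and 1 in Treat_MII. Cpeb4 (chr11:31872211-31935634, plus strand), which is known to sustain tail elongation late in maturation of frog oocytes, had 1 and 0 reads, then 3 and 4, then 3 and 0. No direction can be read from so few reads, and their maturation changes of -1.76 and 1.91 had intervals that spanned 0 widely (-4.94 to 1.42 and -1.39 to 5.22).

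Among the other genes, Pum2 (chr12:8674134-8752581, plus strand) had 19.6 and 5.73 FPKM in WT_FGO, 24.2 and 47.9 in WT_MII and 15.8 and 16.7 in Treat_MII. The WT_MII values exceeded the WT_FGO values without overlap, but the log2 change of 1.58 did not pass the test (SE 0.78, adjusted p = 0.314). Papola (chr12:105784694-105838944, plus strand) had 18.1 and 27.9 FPKM in WT_FGO and 62.1 and 25.9 in WT_MII, so that the groups overlapped (0.81, SE 0.63, adjusted p = 0.490). Of its coding words of 28 bases, 10.7% also occur in Papolb or a predicted gene, so a part of its reads may be shared.

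Cpsf4 (chr5:145167213-145182041, plus strand), the zinc-finger subunit that takes part in reading the polyadenylation hexamer, had 50.6 and 55.6 FPKM in WT_FGO but 7.22 and 15.5 in WT_MII, and 7.20 and 4.32 in Treat_MII. These levels rest on 4 and 5 reads, 1 and 3 reads, and 2 and 1 reads. The groups did not overlap at maturation, and the log2 change was -2.21 (SE 0.69, unadjusted p = 0.0182, adjusted p = 0.124), which did not pass the test. Cpsf2 (chr12:101975988-102006424, plus strand), the non-catalytic partner of the cleavage enzyme CPSF3, had 27.1 and 39.7 FPKM, then 23.3 and 36.9, then 39.9 and 29.4. It overlapped in all 3 groups, with a maturation change of -0.16 (95% interval -1.50 to 1.19) that was 0.36 after centring on the median gene.

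**Figure D2:**
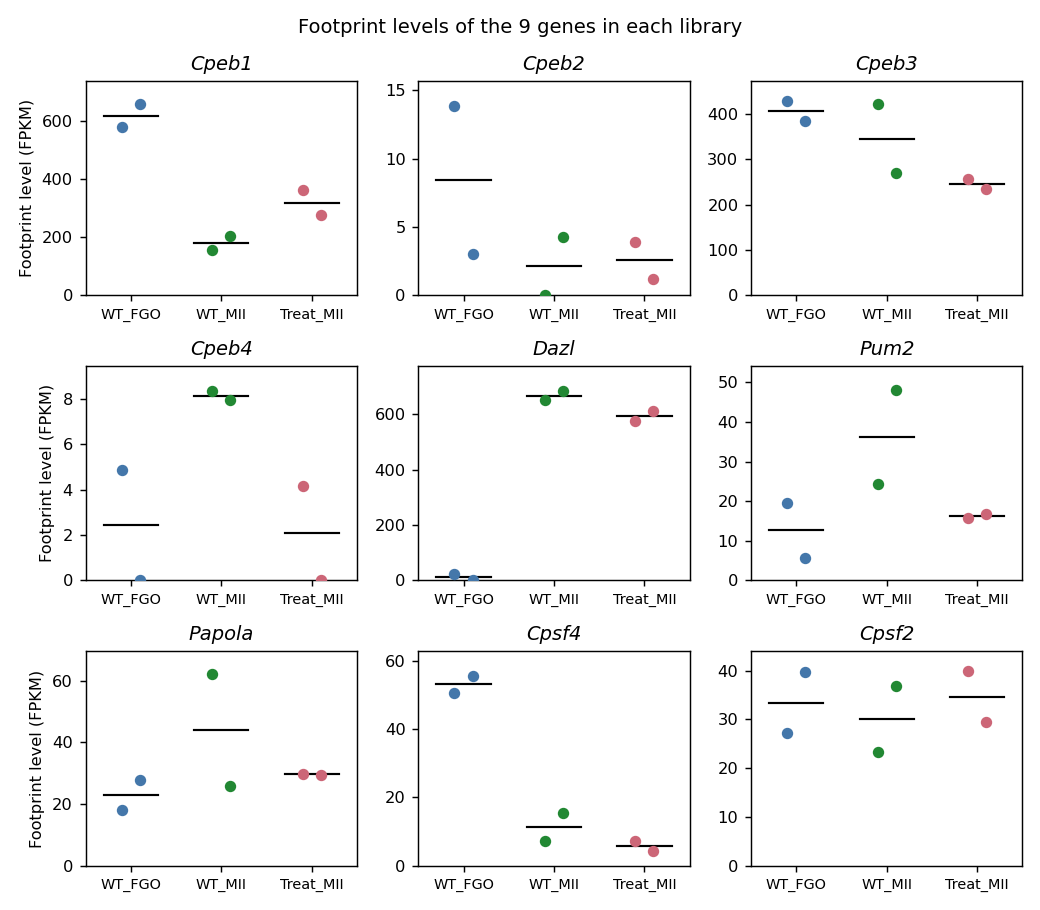
Footprint level (FPKM, linear axis from 0, different for each panel) of the 9 genes. Points are libraries and black lines are the means of 2 libraries. Dazl is at 23.7 and 0 in WT_FGO and at 577 to 683 in the other libraries, while Cpeb1 is lowest in WT_MII at 155 and 205.

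Counted by separation, 3 of 9 genes (Dazl, Cpeb4 and Pum2) had both WT_MII libraries above both WT_FGO libraries, against 15.3% of the tested genes, and 2 (Cpeb1 and Cpsf4) had both below, against 25.8%. Of these, Cpeb4 rests on 1 and 0 reads in WT_FGO and 3 and 4 in WT_MII. A gene at 0 in a library of each group cannot separate, and the effect of such genes on the background shares was not measured.

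The order of the levels changed with maturation. In WT_FGO it was Cpeb1 (618 ± 56.2 FPKM, SD, n = 2), Cpeb3 (406 ± 30.4), Cpsf4 (53.1 ± 3.54), Cpsf2 (33.4 ± 8.93), Papola, Pum2, Dazl, Cpeb2 and Cpeb4. From Papola down each gene's range overlapped that of the gene above it, so that their order is not resolved. In WT_MII it was Dazl (667 ± 22.7), Cpeb3 (345 ± 108) and Cpeb1 (180 ± 36.0), whose ranges were apart, and then Papola, Pum2 and Cpsf2 with overlapping ranges, Cpsf4 and Cpeb4, which overlapped as well, and Cpeb2. In Treat_MII it was Dazl (595 ± 25.1), Cpeb1 (319 ± 62.2) and Cpeb3 (245 ± 15.7), again apart, and then Cpsf2 and Papola with overlapping ranges, Pum2, Cpsf4, and Cpeb2 and Cpeb4 with overlapping ranges. Cpeb1 and Cpeb3 thus stood in opposite order in the control and the treated metaphase II libraries.

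The balance of these 2 genes was followed within each library, a measure chosen after the values were seen, because a ratio of genes in a library does not depend on the library total. Cpeb1 made up 56.5% and 62.9% of the summed CPEB FPKM in WT_FGO, 26.5% and 42.2% in WT_MII, and 57.9% and 54.0% in Treat_MII. Cpeb3 made up 41.7% and 36.8%, then 72.1% and 55.3%, then 40.8% and 45.8%. The WT_MII libraries stood below all 4 others in their Cpeb1 share.

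The log2 ratio of Cpeb1 to Cpeb3 averaged 0.61 in WT_FGO, -0.92 in WT_MII and 0.37 in Treat_MII. The difference was -1.52 for maturation and 1.29 for treatment. An exact 2-sided permutation test of 2 against 2 libraries gave p = 0.333 for each. That is the smallest value this design allows, so these differences cannot pass a threshold here. Both differences use the same WT_MII libraries and are not independent. Since the ratio was chosen after the values were seen, the test lends them no support. Between Treat_MII and WT_FGO the ratio differed by -0.23 (exact p = 0.667). WT_MII replicate 1, with the highest granulosa marker sum, widened the contrast: without it the differences were -0.99 and 0.76, and without WT_MII replicate 2 they were -2.05 and 1.82.

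**Figure D3:**
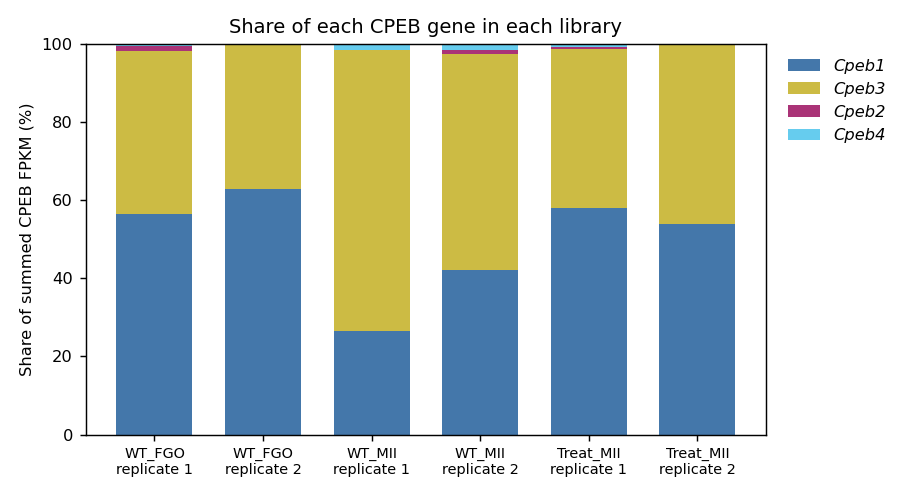
Share (%) of each CPEB gene in the summed FPKM of the 4 CPEB genes, one bar for each library. Cpeb1 and Cpeb3 make up nearly the whole, and the Cpeb1 share is 26.5% and 42.2% in WT_MII against 54.0% to 62.9% in the other libraries.

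The treatment contrast, Treat_MII minus WT_MII, asked whether the G-quadruplex ligand changed the relative footprint levels of these genes. Values are relative to the total of each library, so a uniform fall in footprints could not appear in it. The paper reports fewer ribosome-protected fragments and less protein synthesis after BYBX. No gene of the 9 was called by limma, and 0.0% of all tested genes were called in either direction, although 882 genes and 1 of the 9 had an unadjusted p under 0.05. With voom weights on the recovered reads, 65 genes were called higher and 100 lower over the whole table, again with none of the 9. The median log2 change of the 9 genes was -0.43, against 0 over all tested genes.

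The gene with an unadjusted p under 0.05 was Cpeb1. Both treated libraries (363 and 275 FPKM) lay above both control libraries (155 and 205) and below both WT_FGO libraries (579 and 658). The log2 change was 0.82 (SE 0.31, 95% interval 0.08 to 1.57, unadjusted p = 0.0349), but the adjusted p was 0.836 and ranged from 0.270 to 1 over the alternatives. In pooled reads the treated level was 1.76 times the control level (95% counting interval 1.42 to 2.18). The summed share of the oocyte markers had the same order of groups, highest in WT_FGO and lowest in WT_MII, and their part in the change of Cpeb1 was not tested.

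Dazl had a high level in the treated oocytes too. Its 577 and 613 FPKM lay just below the 651 and 683 of the control libraries, and the log2 change was -0.16 (adjusted p = 1). The interval of the fit, -3.49 to 3.17, includes the spread between 2 and 0 reads in WT_FGO, since the 3 groups share 1 error for a gene. The pooled reads of the 2 metaphase II groups gave a ratio of 0.886 (95% counting interval 0.747 to 1.05).

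Cpeb3 was at 256 and 234 FPKM in the treated libraries against 421 and 269 in the controls, with a log2 change of -0.46 (95% interval -1.24 to 0.32, adjusted p = 0.931). Pum2 was at 15.8 and 16.7 FPKM against 24.2 and 47.9 (-1.03, interval -2.93 to 0.88, adjusted p = 0.931). Neither passed the test. Papola (29.7 and 29.4 FPKM in Treat_MII) and Cpsf2 overlapped between the groups, at -0.43 (interval -1.96 to 1.10) and 0.22 (interval -1.13 to 1.56).

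In all, 1 of the 9 genes (Cpeb1) had both treated libraries above both controls, against 16.2% of tested genes, and 5 (Cpeb3, Cpeb4, Dazl, Pum2 and Cpsf4) had both below, against 15.6%. Of these 5, Cpeb4 and Cpsf4 had at most 4 reads in any metaphase II library.

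**Figure D4:**
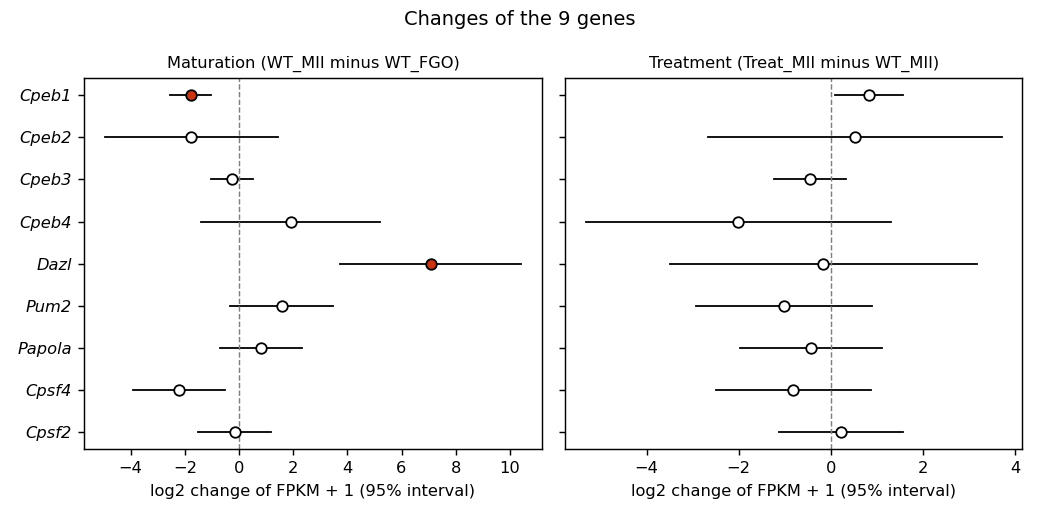
Log2 change of FPKM + 1 with its 95% interval from the limma fit for maturation (left) and treatment (right), with separate horizontal axes. Red points passed an adjusted p of 0.05, which in maturation were Dazl (7.07) and Cpeb1 (-1.79), and no gene did in treatment.

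Against WT_FGO, the treated libraries share their reference with the maturation contrast, so the values are set side by side and not counted as further support. Dazl changed by 6.90 (adjusted p = 0.0539), Cpeb1 by -0.96 (adjusted p = 0.160) and Cpsf4 by -3.03 (adjusted p = 0.0780). None of the 9 genes was called, where 2.86% of tested genes were called higher and 1.0% lower. With voom weights on the recovered reads Dazl (adjusted p = 4.55e-08) was called higher and Cpeb1 (0.00591) and Cpsf4 (0.0382) lower.

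The other genes of the pathway were read from the same fit, in 3 lists drawn up with earlier results of these data known. Of the rest of the cleavage and polyadenylation machinery (CPSF, CstF, poly(A) polymerase and poly(A)-binding genes), 0 of 17 tested genes passed the test in maturation, with a median log2 change of 0.02. Voom weights called 1 higher and 2 lower.

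Among the cytoplasmic partners of CPEB, DAZL and Pumilio, 1 of 17 tested genes was called higher and 4 lower at maturation. Over all tested genes 3.67% and 3.09% were called. By sign, called or not, 8 partners were higher and 9 lower (median -0.04). Those called lower include proteins that keep the cap of a CPEB-bound mRNA from the translation machinery. Tacc3, the mammalian relative of the frog cap-blocking protein Maskin and a spindle protein in the mouse, had 1073 and 914 FPKM in WT_FGO, 37.7 and 42.7 in WT_MII and 132 and 145 in Treat_MII (maturation -4.59, SE 0.31, adjusted p = 0.00194). Its groups were fully apart, with the treated libraries between the others.

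Eif4enif1, an eIF4E-binding repressor, had 151 and 294 FPKM, then 12.3 and 17.6, then 40.9 and 34.5 (maturation -3.75, adjusted p = 0.0153). Eif4e1b, an oocyte form of the cap-binding protein, had 1256 and 612, then 150 and 112, then 237 and 211 (-2.75, adjusted p = 0.0188), and a predicted gene shares 38.4% of its coding words. Tob2, which links deadenylases to mRNA, fell by 2.63 (adjusted p = 0.0485), a call that held in 1 of 16 alternatives. Khdrbs1, an RNA-binding protein, rose by 2.61 (adjusted p = 0.0376). Of the 4 falls 1 was called without either WT_MII replicate and 0 without either Treat_MII replicate, and the rise was lost when any of these 4 libraries was left out.

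In the treatment contrast 0 of these 17 partners were called. Tacc3, Tob2, Eif4enif1 and Eif4e1b each had both treated libraries above both controls. Their log2 changes were 1.76, 1.90, 1.29 and 0.78, with limma adjusted p of 0.494, 0.773, 0.848 and 0.931. These 4, like Cpeb1, had been called lower in the same WT_MII libraries, which favours this outcome, so it is no independent result. Of the 17 partners, 8 had both treated libraries above both controls and 4 both below, against 16.2% and 15.6% of tested genes. Voom weights called Tacc3 (adjusted p = 0.0338).

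Tent2, the cytoplasmic poly(A) polymerase known from frog oocytes, had 0 and 1 reads in WT_FGO, 1 and 1 in WT_MII and 8 and 8 in Treat_MII. Its treatment change of 2.07 did not pass (adjusted p = 0.931), and 71.4% of its coding words also occur in other genes. In pooled reads the treated level was 5.22 times the control level, with a 95% counting interval from 1.23 to 46.8.

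Of the genes known as targets of CPEB1 or DAZL, 8 of 12 tested were called higher at maturation and none lower. Over all tested genes 3.67% and 3.09% were called. By sign, called or not, 9 targets were higher and 3 lower, with a median log2 change of 4.78. Gdf9, a growth factor of the oocyte that is also among the oocyte markers and was singled out after its values were seen, had 5899 and 3883 FPKM in WT_FGO and 2822 and 3417 in WT_MII (-0.62, unadjusted p = 0.0367), and 1 target was called lower with quantile normalization and with voom weights. Ccnb1 (cyclin B1) had 0 reads in both WT_FGO libraries, 50 and 96 in WT_MII and 120 and 132 in Treat_MII. Against a floor of 3 reads per library this is at least 12.0-fold higher in WT_MII (adjusted p = 0.00117), though other annotated genes, pseudogenes among them, hold 92.3% of its coding words. Tex19.1 was likewise at 0 in WT_FGO and at least 16.3-fold higher in WT_MII (adjusted p = 0.000989).

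Mos, the kinase that starts the MAPK cascade of the egg, went from 30.9 and 54.4 FPKM to 1160 and 1473 (4.96, adjusted p = 0.00194). Plat, tissue plasminogen activator, went from 0 and 44.5 to 7359 and 6565 (10.01, adjusted p = 0.0219). Tpx2, a spindle assembly factor, went from 23.7 and 54.2 to 336 and 521 (3.51, adjusted p = 0.0139). Btg4, Cnot7 and Bub1b rose by 4.60, 5.96 and 5.56 (adjusted p = 0.000757, 0.0142 and 0.00523). In the treated libraries Mos (1669 and 1573 FPKM), Plat (7883 and 8133) and Tpx2 (528 and 532) lay above both control values, while Ccnb1 overlapped. Of the 12 targets, 7 had both treated libraries above both controls and 0 both below, against 16.2% and 15.6% of tested genes. Without WT_MII replicate 1 or 2, 4 and 5 of the 12 targets were called at maturation, and without either Treat_MII replicate 0, when 0 genes of the whole table were called. None of the 12 was called in the treatment contrast, where their median change was 0.23.

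**Figure D5:**
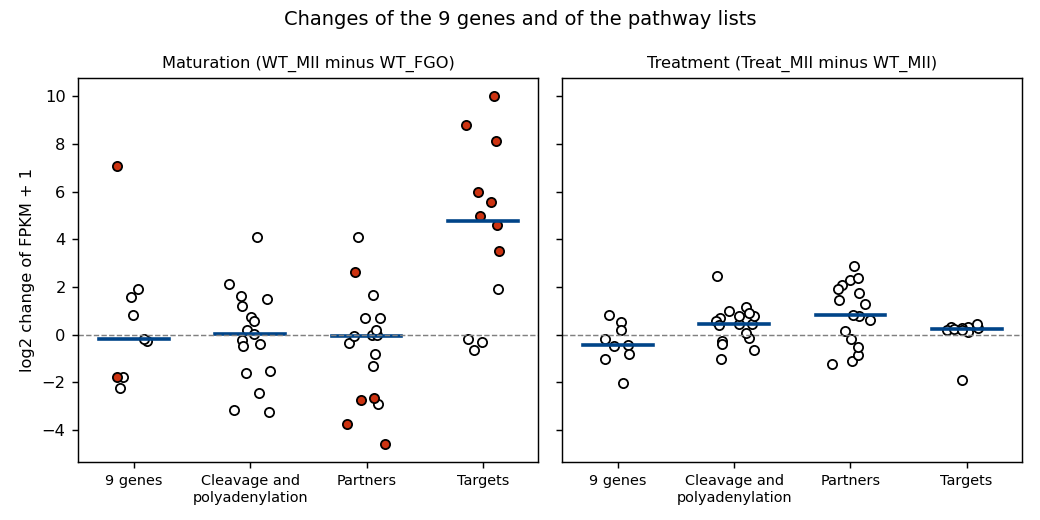
Log2 change of FPKM + 1 of the 9 genes and the 3 pathway lists for maturation (left) and treatment (right). Each point is a gene, red points passed an adjusted p of 0.05, and blue lines are medians, with the targets at 4.78 in maturation and 0.23 in treatment.

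Finally, the genes whose pattern over the 6 libraries was most like that of Cpeb1 and Dazl were listed, among 6519 genes averaging 10 FPKM or more. Genes with a predicted or clone name were passed over. For Cpeb1 the listed genes were Serpinc1, Ywhag and Ppp2ca (Pearson r of log2(FPKM + 1) of 0.995, 0.995 and 0.994). Ywhag had 544 and 566 FPKM in WT_FGO, 90.0 and 140 in WT_MII, and 326 and 201 in Treat_MII. For Dazl they were Selenof, Ppt2 and Sgo2a (0.999 each), and Sgo2a, a protector of meiotic cohesin, had 9.11 and 0 FPKM in WT_FGO and 105 to 128 in the other libraries. With 6 libraries in 3 groups such correlations are a description of the group pattern only.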

How the data were processed

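Footprints of 6 Ribo-lite libraries (3 groups, n = 2) were deposited by the authors as FPKM per gene. The submitters' processing notes name cutadapt 1.14, Bowtie2 2.2.2, STAR 2.5.3a and mm10; the counting program, annotation and handling of molecular identifiers are not given in the sources used here. No spike-in is stated, so values are relative to the total of each library. Of repeated gene names the first entry was kept (26 left out). FPKM multiplied by GENCODE release M21 coding length gave whole reads (tolerance 0.02) for 98.4% of 21937 genes. PCR copies are not independent, so counting intervals (95%, exact binomial) and the floor of 3 reads cover counting error only.

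Genes averaging 1 FPKM or more entered limma 3.58.1 (R 4.3.3; lmFit, eBayes with trend, 2-sided) as log2(FPKM + 1), all 6 libraries together, with Benjamini-Hochberg adjustment over 15127 genes, called under 0.05. Adding 1 shrinks changes between low values, but a 0 in 1 library of a group can enlarge a log2 change. For Dazl (log2 change 7.07) and Plat (10.01) at maturation, pooled reads gave smaller changes, with ratios of 60.3 and 291. Fits were tested on simulated data. The members and lists were chosen with earlier results of these data known. Named genes are the 9 members, called genes of the lists, Tent2, Ccnb1, Mos, Plat and Tpx2, and the 3 most alike of Cpeb1 and Dazl; an item of this rule is not reported here. Alternatives were a pseudocount of 0.1, no filter or 5 FPKM, median centring, quantile normalization, a common total, a replicate block, only the compared groups, no trend, voom weights on recovered reads, leaving out each library, and transcripts with the longest 3'-UTR. RNA-seq was not analysed here. Replicates correlated at Spearman 0.579 (WT_FGO), 0.707 (WT_MII) and 0.839 (Treat_MII) over 6520 genes.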

Additional observations from a re-analysis of the deposited data

How the results depend on the processing

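Counts moved with the processing as follows, the cause not being tested beyond the construction of each alternative. In maturation, all genes called higher (555) and lower (468) became 349 and 187 without a filter, 188 and 140 without a trend, and 0 and 0 with only the compared groups, while 304 were lower after centring and 1575 with voom weights. Leaving out a library gave 0 to 902 higher and 0 to 1066 lower. For treatment (0 and 0), 27 genes were higher without a filter, and 65 higher and 100 lower with voom weights, and leaving out a library gave 0 to 398 higher and 0 to 387 lower. For treated against fully grown oocytes (433 and 152), the higher calls were 654 after centring, 56 without a trend, 850 with voom weights and 31 with only the compared groups, and the lower calls 71 without a filter, 232 at 5 FPKM, 56 after centring, 3 without a trend, 1984 with voom weights and 1 with only the compared groups. Leaving out a library gave 120 to 942 higher and 9 to 784 lower.

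Of the 9 genes, the maturation call of Dazl was lost (0 higher) with a pseudocount of 0.1, without a filter, without a trend and with only the compared groups (adjusted p = 0.124, 0.149, 0.0831 and 0.213), and that of Cpeb1 (0 lower) without a filter, after centring, without a trend and with only the compared groups (0.0723, 0.0740, 0.200 and 0.159). Leaving out a library gave 0 to 1 higher and 0 lower. Both held with voom weights (adjusted p = 1.75e-08 and 5.5e-06). No alternative called any of the 9 for treatment, in either direction, leaving out a library included (0). Against fully grown oocytes, 1 was higher at 5 FPKM, after centring, with quantile normalization, the replicate block and voom weights, 2 were lower with voom weights, and leaving out a library gave 0 to 1 higher and 0 lower.

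Over the 3 pathway lists, 9 genes were called higher and 4 lower at maturation. These became 5 and 2 without a filter, 5 and 1 without a trend, and 0 and 0 with only the compared groups. Leaving out a library gave 0 to 11 and 0 to 3. For treatment voom weights called 3 higher, and leaving out a library 0 to 2 higher and 0 to 1 lower. On transcripts with the longest 3'-UTR 0 of the 9 genes had a G-quadruplex motif in the 5'-UTR.

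Signs turned only for changes that did not pass the test. At maturation, Cpeb3 was 0.27 after centring, and Cpsf2 0.36 after centring and 0.34 with quantile normalization. For treated against fully grown oocytes, Cpeb4 was 0.14 after centring and 0.13 with quantile normalization. Leaving out a library gave ranges across 0 for Cpeb3 (-0.59 to 0.055) and Cpsf2 (-0.48 to 0.16) at maturation, for Cpeb2 (-0.67 to 1.72), Papola (-1.05 to 0.18) and Cpsf2 (-0.10 to 0.54) in treatment, and for Cpeb4 (-1.37 to 1.18), Pum2 (-0.25 to 1.36) and Cpsf2 (-0.21 to 0.33) for treated against fully grown oocytes.

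The replicate numbers did not pair the libraries: deviations from the group means of same-numbered libraries correlated at -0.014, -0.0097 and 0.0036 over 6520 genes. With the replicate block, genes called lower for treated against fully grown oocytes fell to 73, and Dazl (0.0281) and Cpeb1 (0.0463) stayed called at maturation. Depth limits Cpeb2, Cpeb4, Cpsf4 and Tent2, whose libraries held at most 8 reads each.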
